A study of Mus musculus with 4 samples.

Results

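Mitochondrial ribosomal proteins were described across unstimulated and stimulated mouse macrophages, as the genes whose symbols begin with Mrpl (large subunit) or Mrps (small subunit) followed by a number. Of 18256 gene symbols in the count tables, 77 were such genes, 48 for the large and 29 for the small subunit, and Mrpl23-ps1 was left out because its name marks a pseudogene. The cells were wild-type bone marrow macrophages grown for 7 days with 20 ng/ml MCSF, the growth factor that turns marrow progenitors into macrophages. M1 cells (2 libraries) spent the last 24 h in medium with LPS at 100 ng/ml and IFN-γ at 20 ng/ml, an inflammatory stimulus, and M0 cells (2 libraries) spent it in MCSF alone. Age and sex of the mice are not given in the labels, and neither is whether the M1 medium held MCSF. Since no label ties the 2 libraries of a group to separate mice or dishes, each p-value reflects the scatter among these 4 libraries, and that scatter may be only technical.

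The mitochondrial ribosome translates the few proteins that mitochondrial DNA encodes, all of them subunits of the respiratory chain and ATP synthase. Its small subunit reads the mRNA and its large subunit forms the peptide bonds, and the proteins of both are encoded in the nucleus, made in the cytosol and imported. Many of them descend from bacterial ribosomal proteins, and others are found only in mitochondrial ribosomes. In macrophages, LPS with IFN-γ is known to lower mitochondrial respiration and raise glycolysis.

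M1 libraries had 17838606 and 17633945 counts, against 18987705 and 15921466 counts in M0 libraries. All 6 stimulation markers were higher in M1, among them Nos2, the inducible nitric oxide synthase, at 51.8 and 53.5 CPM in M1 against 0.288 and 0 CPM in M0 (CPM is the count scaled to library size by TMM, which sets libraries to a common level over most genes). Summed macrophage markers were at 29692 and 29207 CPM in M1 and 20682 and 22989 CPM in M0. Most of it was Lyz2, at 18555 and 17595 CPM in M1 and 14427 and 16580 CPM in M0, which did not pass. Of the 8 markers 4 rose, 2 fell (Cd68 and Mertk) and 2 did not pass. Markers of other cells did not all run one way. The 9 neutrophil genes summed to 149 and 110 CPM in M1 against 240 and 253 CPM in M0, and of 8 tested 1 rose and 6 fell. The 6 stromal genes summed to 458 and 519 CPM in M1 against 715 and 691 CPM in M0, most of it from Col1a1 and Col1a2, which fell, as did Cxcl12, while Col3a1, Pdgfrb and Dcn rose. Sums of 7 T and NK cell markers were 4.80 and 5.23 CPM in M1 and 22.4 and 21.6 CPM in M0, with 2 of the 7 at 0. Nearly all of it was Cd4, at 4.55 and 4.92 CPM in M1 and 21.5 and 21.3 CPM in M0. Cd4 was the only 1 of the 7 that passed the filter on low counts. The 5 erythroid and megakaryocyte markers summed to 75.1 and 60.0 CPM in M1 against 19.5 and 25.0 CPM in M0, nearly all of it from Pf4, a platelet chemokine, at 71.4 and 57.1 CPM in M1 and 15.8 and 19.1 CPM in M0. Of the others, Itga2b did not pass (log2 fold change -0.49), Hba-a1 and Alas2 were under 0.5 CPM in all libraries and Hba-a2 was at 0. B cell and dendritic cell sums stayed under 9 CPM in all 4 libraries. Of 5 dendritic cell genes tested, 2 rose (Ccr7 and Xcr1) and 3 fell (Siglech, Cd209a and Zbtb46). What part these cells had in the results below was not tested.

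Most genes for mitochondrial ribosomal proteins were higher in M1 than in M0, by less than 2-fold. Of the 76 that passed the filter on low counts, 36 (47.4%) rose and 2 (2.63%) fell at an adjusted p of 0.05 in edgeR's quasi-likelihood test. Among all 12966 genes tested, 24.2% rose and 24.0% fell. Both M1 libraries lay above both M0 libraries for 61 members (80.3%) and below them for 3, and for 37.0% and 38.0% of all genes tested. The members' median log2 fold change was 0.41, a 1.33-fold difference, with quartiles at 0.22 and 0.68, while all genes had a median of -0.02 with quartiles at -0.53 and 0.43. The fitted change was above 0 for 71 of the 76 members, against 48.9% of all genes, and for 53 of the 76 when libraries were scaled by their totals alone. The count rests on single libraries: without M0 replicate 1, 12 members rose, against 12.7% of all genes, and without M0 replicate 2, 20 did, against 13.7%. Without M1 replicate 1, 22 members rose, against 20.4% of all genes, and without M1 replicate 2, 39 did, against 22.0%. Scaling mattered as well: with library totals 16 members rose and 3 fell, against 15.6% and 36.8% of all genes, and with upper-quartile factors 26 rose, against 20.1%. With the replicate number as a block 36 members rose and 2 fell, against 22.8% and 22.9% of all genes. The rise held in each of 12 other settings for 11 members, named with their subunits below. In bulk RNA, a change in the RNA per cell and a change in the share of cells that carry it cannot be told apart.

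**Figure D1:**
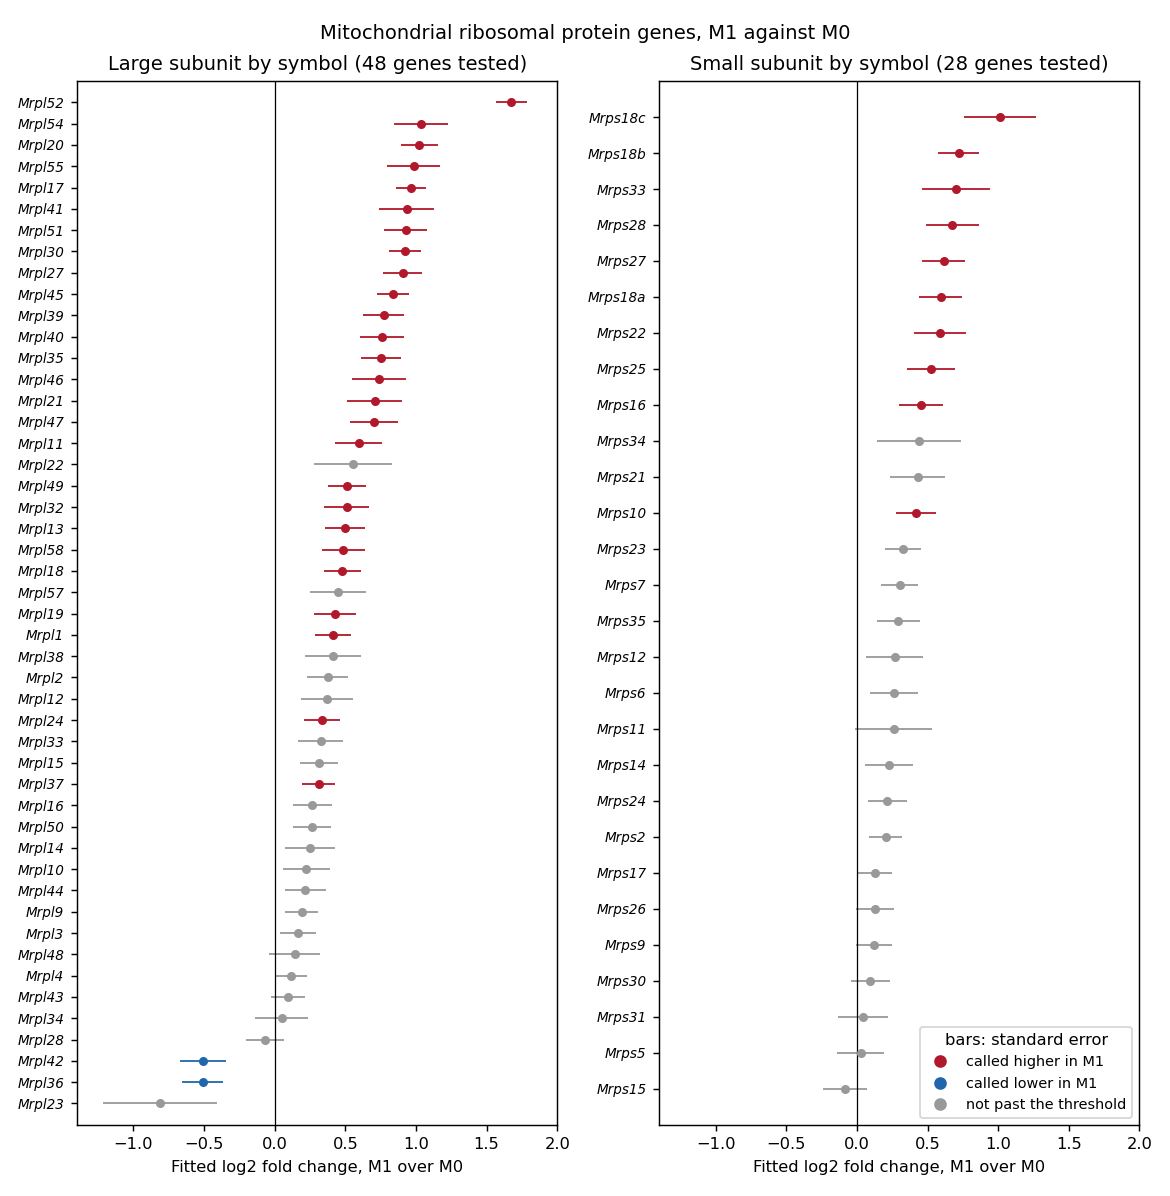
Fitted log2 fold change of each tested gene, M1 over M0, with its standard error as a bar, for the large subunit (left, 48 genes) and the small subunit (right, 28 genes). Red points rose and blue points fell in M1, and most grey points, which did not pass the threshold, also lie right of 0.

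Promoter sequences are shown for 4 members on which the account turns: Mrpl52 with the largest rise, Mrpl30 with a large rise and a high level, Mrps18c with the largest rise in the small subunit, and Mrpl36 with the largest fall that passed the test. Each runs 5′ to 3′ on the gene's own strand, from 250 bases before to 50 after the RefSeq start on GRCm38.p6, and lies on the plus strand. Capitals mark matches, on either strand, to the consensus of NRF1, CCGGAAGT (ETS factors such as GABPA), AAGATGGC (YY1) or CACGTG (the E-box of MYC and its relatives). These factors are known regulators of nuclear genes for mitochondrial proteins.
Mrpl52, at chr14:54426659-54426958, holds 1 ETS match, on the reverse strand.
Mrpl52: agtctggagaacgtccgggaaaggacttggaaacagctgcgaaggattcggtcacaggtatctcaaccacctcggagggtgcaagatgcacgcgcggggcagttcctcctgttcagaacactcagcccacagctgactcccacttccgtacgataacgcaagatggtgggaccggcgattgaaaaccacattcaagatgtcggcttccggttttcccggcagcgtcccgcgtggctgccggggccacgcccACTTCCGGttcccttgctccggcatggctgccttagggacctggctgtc
Mrpl30, at chr1:37890227-37890526, holds 1 NRF1 match, on the reverse strand.
Mrpl30: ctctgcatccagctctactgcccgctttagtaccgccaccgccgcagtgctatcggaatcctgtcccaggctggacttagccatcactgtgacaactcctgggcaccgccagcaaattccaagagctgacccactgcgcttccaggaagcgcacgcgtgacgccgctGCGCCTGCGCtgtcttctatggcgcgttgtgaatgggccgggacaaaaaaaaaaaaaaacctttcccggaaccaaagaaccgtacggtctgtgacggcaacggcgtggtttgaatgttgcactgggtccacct
Mrps18c, at chr5:100798509-100798808, holds an E-box directly followed by an ETS match on the reverse strand, which share no base.
Mrps18c: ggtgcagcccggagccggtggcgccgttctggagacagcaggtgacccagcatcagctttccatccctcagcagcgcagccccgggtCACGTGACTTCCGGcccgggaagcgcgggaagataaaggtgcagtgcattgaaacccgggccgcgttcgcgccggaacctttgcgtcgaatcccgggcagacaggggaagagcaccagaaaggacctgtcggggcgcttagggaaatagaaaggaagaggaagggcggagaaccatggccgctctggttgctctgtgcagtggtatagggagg
Mrpl36, at chr13:73330759-73331058, holds an E-box and, after it, a YY1 match on the reverse strand.
Mrpl36: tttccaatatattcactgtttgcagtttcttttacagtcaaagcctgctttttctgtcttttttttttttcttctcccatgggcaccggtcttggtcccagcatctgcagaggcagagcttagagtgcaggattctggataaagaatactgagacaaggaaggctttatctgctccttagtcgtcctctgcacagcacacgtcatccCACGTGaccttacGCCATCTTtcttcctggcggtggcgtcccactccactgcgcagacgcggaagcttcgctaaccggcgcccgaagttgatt

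Across the large subunit, 26 of 48 genes (54.2%) rose and 2 fell, with a median log2 fold change of 0.44. The largest rise was that of Mrpl52 (ENSMUSG00000010406, chromosome 14, 54426909 to 54429756, plus strand, mm10), a protein found only in mitochondrial ribosomes. It stood at 155 and 137 CPM in the M1 libraries, against 46.7 and 44.6 CPM in the M0 libraries. The groups were far apart, and the log2 fold change was 1.68 ± 0.111 (SE; 3.19-fold; edgeR adjusted p = 3.26e-07, at most 0.0056 over 12 other settings). Of the other members, Mrpl54, Mrpl20 and Mrps18c also rose 2-fold or more. Together that makes 4 of 76 members, against 9.93% of all genes tested. The large-subunit genes called higher in every setting tried were Mrpl52, Mrpl54, Mrpl20, Mrpl55, Mrpl17, Mrpl51, Mrpl30, Mrpl27, Mrpl45 and Mrpl39. Of these, Mrpl27 has uncertain counts, with copies nearly identical to 73% of its length.

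Mrpl54 (chromosome 10, 81264713 to 81266934, minus strand), another protein specific to mitochondria, was at 17.1 and 19.2 CPM in M1 and 9.78 and 7.88 CPM in M0. Mrpl20 (chromosome 4, 155802878 to 155809975, plus strand), whose bacterial counterpart is needed early in building the large subunit, was at 47.9 and 45.6 CPM in M1 and 22.2 and 23.8 CPM in M0. The libraries of the 2 groups did not overlap for either gene, and the log2 fold changes were 1.03 (adjusted p = 0.00113) and 1.02 (adjusted p = 6.27e-05), both by edgeR. Mrpl55 (chromosome 11, 59202486 to 59206134, plus strand) was at 16.2 and 18.2 CPM in M1 against 9.06 and 8.29 CPM in M0, a log2 fold change of 0.99 (edgeR adjusted p = 0.00126). Its protein is counted as the relative of a bacterial large-subunit protein.

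Mrpl17 (chromosome 7, 105803206 to 105811099, minus strand), the counterpart of a protein at the exit of the bacterial peptide tunnel, was among the most abundant by counts. It had 116 and 108 CPM in M1 and 55.9 and 58.5 CPM in M0. Its M1 libraries were both near double the M0 ones, with a log2 fold change of 0.97 ± 0.106 (SE; edgeR adjusted p = 2.16e-05). Mrpl30 (chromosome 1, 37890477 to 37898535, plus strand), whose promoter is printed above, had 109 and 96.1 CPM in M1 against 54.5 and 53.8 CPM in M0. The M0 libraries were nearly equal, and the log2 fold change was 0.92 ± 0.112 (SE; edgeR adjusted p = 4.54e-05). Mrpl51 (chromosome 6, 125191801 to 125196269, plus strand) had 31.6 and 29.0 CPM in M1 and 15.0 and 16.9 CPM in M0, a log2 fold change of 0.93 (edgeR adjusted p = 0.000458). Mrpl41 (chromosome 2, 24974117 to 24975098, minus strand) had 16.6 and 14.1 CPM in M1 and 7.96 and 8.11 CPM in M0, a log2 fold change of 0.93 (edgeR adjusted p = 0.00241, and 0.0551 without M0 replicate 1). A copy named Gm6434 is nearly identical to 47.9% of its exonic length, so its counts are uncertain.

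Both genes that fell are in the large subunit. Mrpl36 (chromosome 13, 73328513 to 73332178, plus strand), whose bacterial counterpart is among the smallest ribosomal proteins, was at 33.6 and 27.6 CPM in M1 against 39.8 and 47.5 CPM in M0. Both M1 libraries were below both M0 libraries, with a log2 fold change of -0.51 ± 0.147 (SE; edgeR adjusted p = 0.0146). Mrpl42 (chromosome 10, 95480805 to 95501940, minus strand), specific to mitochondria, was at 17.6 and 16.1 CPM in M1 and 21.9 and 26.0 CPM in M0, a log2 fold change of -0.51 (edgeR adjusted p = 0.0244). Neither call is firm. Without M1 replicate 2, M0 replicate 1 or M0 replicate 2 the edgeR adjusted p was 0.0942, 0.074 and 0.202 for Mrpl36, and 0.0982, 0.069 and 0.189 for Mrpl42. A copy named Gm6419 is nearly identical to 64.4% of the longest coding transcript of Mrpl42.

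The large-subunit genes nearest to no change were Mrpl34, Mrpl28 and Mrpl43. Mrpl28, with a bacterial counterpart, had 39.4 and 39.1 CPM in M1 and 37.2 and 45.4 CPM in M0, with the M1 libraries inside the M0 range (log2 fold change -0.07, edgeR adjusted p = 0.698). Mrpl34 had 23.4 and 28.6 CPM in M1 and 20.8 and 29.6 CPM in M0, and Mrpl43 had 46.8 and 46.9 CPM in M1 and 41.8 and 46.2 CPM in M0. Their log2 fold changes were 0.05 and 0.09. Mrpl23, a protein near the exit of the peptide tunnel, had the lowest level of the subunit, at 1.60 and 2.15 CPM in M1 against 3.02 and 3.59 CPM in M0 (log2 fold change -0.81, edgeR adjusted p = 0.123). It is named here after its values were seen. Its pseudogene Mrpl23-ps1 is identical to 68.9% of its longest coding transcript. The pseudogene had 33.2 and 34.2 CPM in M1 and 32.0 and 26.3 CPM in M0, so reads of the 2 genes may have been split between them.

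**Figure D2:**
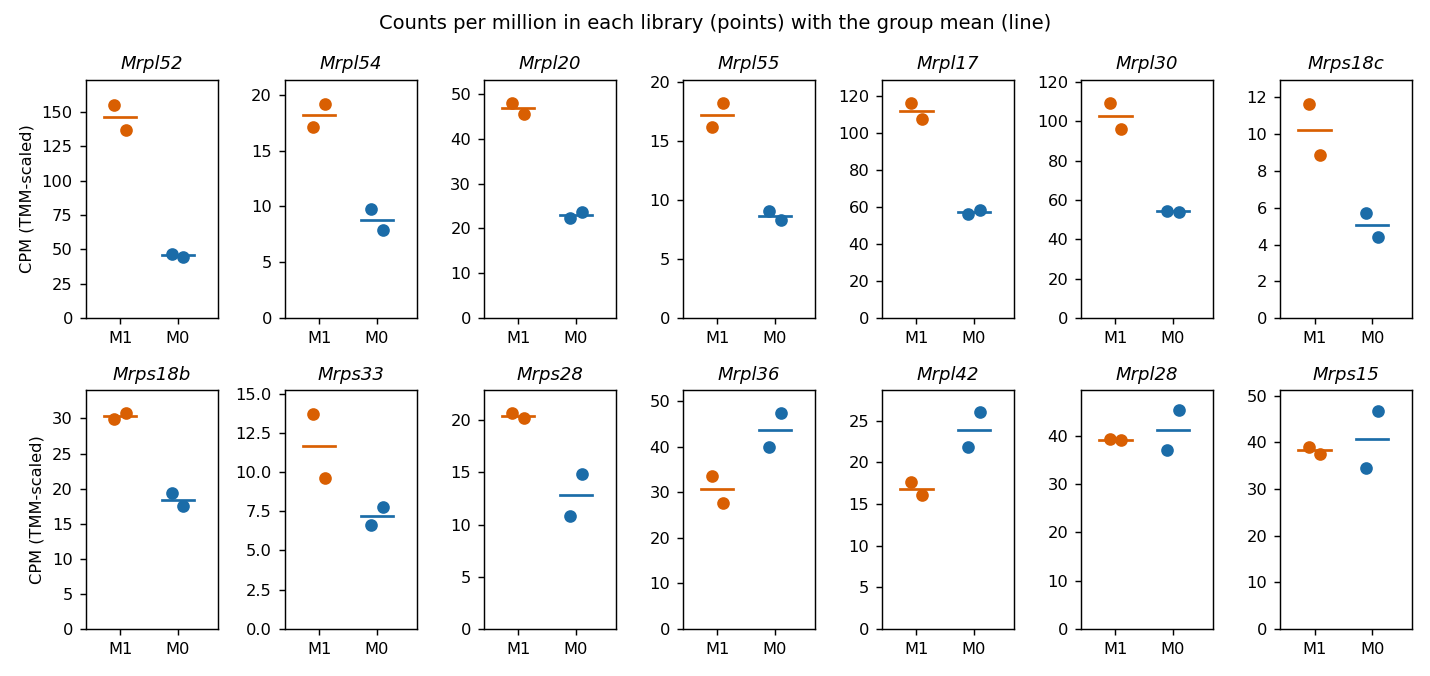
CPM (TMM-scaled) of 14 members in each library, with M1 (orange) left of M0 (blue) and a line at the group mean; each vertical axis starts at 0. The libraries of the 2 groups do not overlap for the first 10 genes, nor for Mrpl36 and Mrpl42, where M1 is the lower, and they overlap for Mrpl28 and Mrps15.

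In the small subunit, 10 of the 28 tested genes (35.7%) rose and none fell in edgeR's test, with a median log2 fold change of 0.30. None fell at an unadjusted p under 0.05, nor in limma-voom or DESeq2. The largest rise was that of Mrps18c (chromosome 5, 100798627 to 100804471, plus strand), 1 of 3 mammalian relatives of a single bacterial protein. It had 11.6 and 8.86 CPM in M1 against 5.71 and 4.40 CPM in M0. The groups did not overlap, but the M1 libraries lay apart from each other, and the log2 fold change was 1.01 ± 0.258 (SE; edgeR adjusted p = 0.00759). Without M0 replicate 1 or 2 the edgeR adjusted p was 0.0595 and 0.109. Its counts are uncertain, since Gm44950 is nearly identical to 22.8% of its longest coding transcript. Gm43511 also overlaps 18.5% of its exonic length on the same strand.

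Mrps18b, the second relative (chromosome 17, 35910379 to 35916389, minus strand), had 30.0 and 30.8 CPM in M1 and 19.3 and 17.5 CPM in M0. Its log2 fold change was 0.72 (edgeR adjusted p = 0.00183), and it was the one small-subunit gene called under every setting tried. That call lay right at the threshold without M0 replicate 2, where the log2 fold change was 0.66. An antisense gene, Gm16279, covers 59.1% of its exonic length, and the strand setting of the counting is not given in the sources used here. Gm13552 is also nearly identical to 38.6% of its longest coding transcript, so its counts are uncertain. Mrps28 had 20.7 and 20.2 CPM in M1 and 10.8 and 14.9 CPM in M0 (log2 fold change 0.68, edgeR adjusted p = 0.0127). It is the mitochondrial relative of a bacterial small-subunit protein that binds mRNA. Mrps27, a protein with RNA-binding pentatricopeptide repeats, had 25.2 and 27.7 CPM in M1 and 17.4 and 17.3 CPM in M0 (log2 fold change 0.61, edgeR adjusted p = 0.006).

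Mrps22, which is needed to assemble the human small subunit, had 26.1 and 24.3 CPM in M1 and 19.6 and 13.8 CPM in M0 (log2 fold change 0.59, edgeR adjusted p = 0.0216). Mrps33 had 13.7 and 9.60 CPM in M1 and 6.62 and 7.76 CPM in M0 (log2 fold change 0.70, edgeR adjusted p = 0.0333). Mrps25 had 18.9 and 17.8 CPM in M1 and 13.2 and 12.3 CPM in M0 (log2 fold change 0.52, edgeR adjusted p = 0.0245). For these 3 genes both M1 libraries were above both M0 libraries, but for Mrps22 and Mrps33 the gap between the groups was smaller than the distance between the libraries of one of them. The coding gene Nr2c2 overlaps 75.6% of Mrps25 on the opposite strand, so its counts are uncertain. So are those of Mrps33, nearly identical to Gm5776 over 29% of its longest coding transcript. The counts of Mrps27, overlapped over 22.6% of its exonic length by a transcript on the opposite strand, are uncertain as well.

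Small-subunit calls hung on single libraries. The edgeR adjusted p of Mrps28 was 0.136 without M0 replicate 1. That of Mrps27 was 0.0739 and 0.0705 without M0 replicate 1 or 2. That of Mrps22 was 0.0672 without M1 replicate 1 and 0.178 without M0 replicate 2. Mrps33 and Mrps25 passed in 1 of the 4 fits that leave out a library, the one without M1 replicate 2, and had adjusted p of 0.0863 to 0.243 in the other 3. The remaining called genes, Mrps16 and Mrps10, both with bacterial counterparts, rose by 0.45 and 0.42 on the log2 scale. Neither passed by DESeq2 (adjusted p = 0.0698 and 0.0744). With 1 library left out, their log2 fold changes ranged from 0.34 to 0.57 and from 0.31 to 0.54. The counts of Mrps10 are uncertain, since AC154457.3 is nearly identical to 50.1% of its longest coding transcript.

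At the other end were Mrps5, Mrps31 and Mrps15, with log2 fold changes of 0.03, 0.04 and -0.08. Mrps15, with a bacterial counterpart, had 39.1 and 37.5 CPM in M1 and 34.6 and 46.7 CPM in M0, the M0 libraries lying on either side of the M1 ones (edgeR adjusted p = 0.683). Mrps23 had 59.5 and 50.1 CPM in M1 and 41.7 and 45.8 CPM in M0 (log2 fold change 0.33, edgeR adjusted p = 0.0572, and 0.0196 without M1 replicate 2). Mrps24 had a log2 fold change of 0.22 (edgeR adjusted p = 0.221).

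Of the 38 tested members that did not pass in either direction, 35 had a fitted change above 0, with a median of 0.23. That includes Mrpl12, the stalk protein that binds translation factors, at 13.2 and 13.8 CPM in M1 and 10.4 and 10.4 CPM in M0 (edgeR adjusted p = 0.123, named after its values were seen).

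For 3 genes the symbol and the place in the ribosome differ. In structures of the mammalian mitochondrial ribosome, Mrps18a and Mrps30 sit in the large subunit, and Mrps36 is now known as a component of the 2-oxoglutarate dehydrogenase complex. Mrps18a, the last of the Mrps18 relatives, had 45.3 and 34.9 CPM in M1 against 27.0 and 26.1 CPM in M0, a log2 fold change of 0.59 (edgeR adjusted p = 0.00764, and 0.0731, 0.116 and 0.13 without M1 replicate 1, M0 replicate 1 or M0 replicate 2). Mrps30 had 29.4 and 30.4 CPM in M1 and 26.0 and 30.0 CPM in M0, a log2 fold change of 0.10 (edgeR adjusted p = 0.608). Mrps36 was the one member that failed the filter, with 6 and 1 counts in M1 and 10 and 13 counts in M0. Genes nearly identical to 44.1% of its longest coding transcript may take its reads. With genes placed by structure, 27 of 50 large-subunit genes rose and 2 fell, and 9 of 26 small-subunit genes rose, with the same medians of 0.44 and 0.30.

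Set side by side, the large subunit was the more raised. Its summed level was 1913 and 1773 CPM in M1 and 1242 and 1344 CPM in M0, a mean of 1843 ± 98.7 against 1293 ± 72.1 CPM (SD, n = 2 each) and a ratio of 1.43. The small subunit's summed level was 835 and 764 CPM in M1 and 634 and 669 CPM in M0, a mean of 799.8 ± 50.1 against 651 ± 24.8 CPM and a ratio of 1.23. Summed large-subunit counts over summed small-subunit counts, a ratio that library scaling does not touch, were 2.29 and 2.32 in M1 and 1.96 and 2.01 in M0. The M1 libraries lay above the M0 libraries by more than either group's spread, with means of 2.30 ± 0.0209 and 1.98 ± 0.0351 (SD, n = 2 each) and a 1.16-fold difference. No p-value is given, and 2 libraries against 2 cannot give a two-sided exact permutation p under 0.333.

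Mrpl52 alone supplied 8.10% and 7.72% of the large-subunit counts in M1, against 3.76% and 3.32% in M0. Without it the ratio of large to small was 2.10 and 2.14 in M1 and 1.89 and 1.94 in M0, a 1.11-fold difference. With genes placed by structure the difference was 1.16-fold, and among genes with little overlap or likeness to others it was 1.23-fold. None of these ratios counts the mitochondrial ribosomal proteins with other symbols described below, among them Dap3, Aurkaip1 and Chchd1 of the small subunit, which rose. The difference between the subunits' median log2 fold changes was 0.14, and it was 0.07 without M1 replicate 1 and 0.09 without M1 replicate 2. Whether single large-subunit genes change more than single small-subunit genes was not tested.

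**Figure D3:**
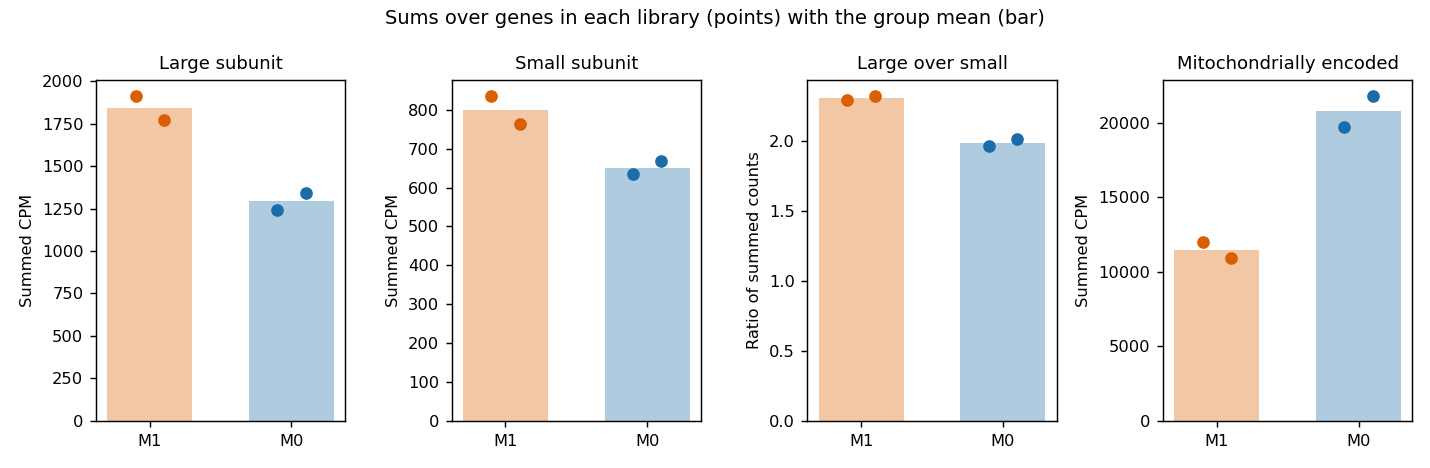
From left to right, summed CPM of the large subunit and of the small subunit, the ratio of summed large to summed small subunit counts, and summed CPM of the mitochondrially encoded genes, in each library (points) with the group mean as a bar. M1 is above M0 for both subunits and their ratio and below it for the mitochondrially encoded genes, with no overlap of libraries in any panel.

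**Figure D4:**
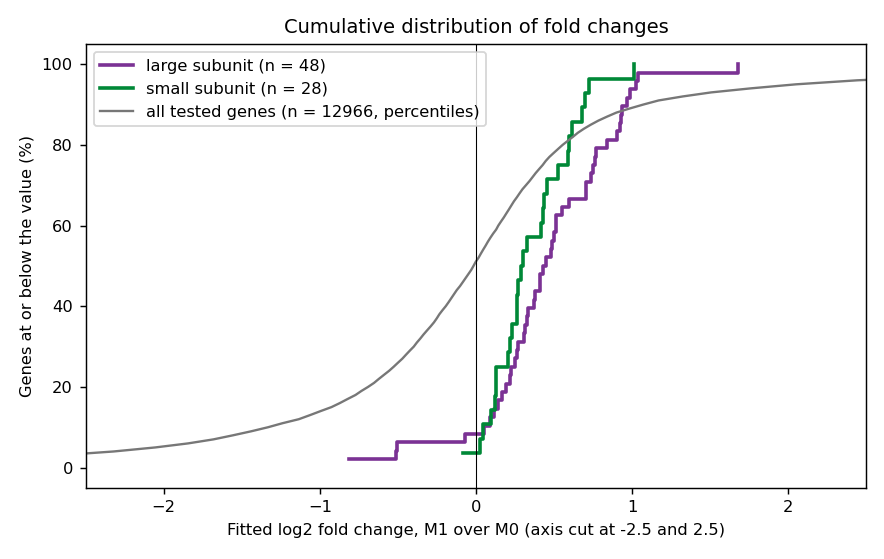
Cumulative share of genes (vertical axis, percent) at or below each fitted log2 fold change, M1 over M0 (horizontal axis), for the large subunit, the small subunit and all genes tested. Both subunits' curves lie mainly right of 0, with medians of 0.44 and 0.30 against -0.02 for all genes, and both are steeper than that of all genes.

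Split by ancestry, 19 of 46 genes with bacterial counterparts (41.3%) rose and 1 fell (Mrpl36), with a median log2 fold change of 0.33. Among all genes tested, 24.2% rose and 24.0% fell. Of 30 genes classed as specific to mitochondria, 17 (56.7%) rose and 1 fell (Mrpl42), with a median of 0.50. These 30 include Mrps18a and Mrps18b, which both rose, although they are relatives of a bacterial protein as described above. Mrps18c is counted with the bacterial counterparts. The order was the same in both subunits as placed by structure. Medians were 0.50 for mitochondria-specific and 0.39 for bacterial-type genes in the large subunit, and 0.48 and 0.26 in the small subunit. Of the raised mitochondria-specific genes of the small subunit, Mrps18b, Mrps25, Mrps27 and Mrps33 have uncertain counts and Mrps22 does not. Of the raised bacterial-type genes there, Mrps18c and Mrps10 have uncertain counts, and Mrps28 and Mrps16 do not. Among the mitochondria-specific genes are Mrpl45, which holds the ribosome to the inner membrane in mammals, at 79.6 and 72.7 CPM in M1 against 43.0 and 42.3 CPM in M0, and Mrpl58, a peptide-release enzyme built into the large subunit, with a log2 fold change of 0.49.

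Levels differed widely between members of one ribosome. Per kilobase of exonic length and averaged over the 4 libraries, large-subunit levels ranged from 2.68 CPM per kb (Mrpl23) to 195 CPM per kb (Mrpl52), with a median of 16.9. After Mrpl52 came Mrpl30 at 80.6 and Mrpl34 at 42.2 CPM per kb. Small-subunit levels ranged from 0.593 CPM per kb (Mrps36) to 42.1 CPM per kb (Mrps15), with a median of 12.9, and Mrps24 and Mrps23 followed Mrps15 at 38.2 and 34.5 CPM per kb. The length is that of the exons of a gene's coding transcripts tagged basic in the annotation. It can understate the level of genes with a long rarely used exon (Mrpl17, with 7605 bases, had 11.1 CPM per kb). Mrpl52 was thus both the most abundant member by this measure and the most raised, while Mrpl34 and Mrps15 were abundant with fitted changes near 0.

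The members lie on 17 chromosomes, and 33 have a coding gene that starts on the opposite strand within 1000 bases. Of 31 such neighbours tested, 6 rose, 5 fell and 20 did not pass, with a median log2 fold change of 0.00. These 31 include the members Mrpl46, which rose, and Mrps11, which did not pass, each the neighbour of the other. The shares over all genes tested were 24.2% that rose and 24.0% that fell. Mrpl30 and its neighbour Mitd1, a protein of cell division, both rose, with Mitd1 at 47.1 and 47.2 CPM in M1 and 9.06 and 10.7 CPM in M0 (log2 fold change 2.26, edgeR adjusted p = 3.35e-07). Mrpl32 and Psma2, a proteasome subunit, both rose (log2 fold changes 0.51 and 1.09), as did Mrpl18 and Tcp1, a chaperonin subunit (0.48 and 0.65), and Mrps27 and Ptcd2 (0.61 and 0.40). Beside 3 members that rose the neighbour fell: Mrpl41 with Pnpla7 (log2 fold change of the neighbour -1.57), Mrpl37 with Cyb5rl (-0.79) and Mrpl51 with Ncapd2 (-0.34). Mrpl37 was near the threshold (edgeR adjusted p = 0.0473) and did not pass by DESeq2 (adjusted p = 0.101). With library totals Mrpl37, Mrpl32, Mrpl18 and Mrps27 did not pass in edgeR, while Mrpl30, Mrpl41 and Mrpl51 did. The counts of Mrpl32 are uncertain, since Gm6578 is nearly identical to 25.2% of its longest coding transcript. In the remaining 10 pairs with a raised member the neighbour did not pass. Mrpl46 and Mrps11 start head to head, and Mrpl46 was at 19.9 and 18.9 CPM in M1 against 9.92 and 13.5 CPM in M0 (log2 fold change 0.74, edgeR adjusted p = 0.00871). Mrps11 was at 11.2 and 9.04 CPM in M1 and 6.28 and 10.7 CPM in M0, its groups overlapping (log2 fold change 0.26, edgeR adjusted p = 0.462). These pairs were named after their values were seen.

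Promoter windows of RefSeq were found for 68 members, 74 windows in all. The NRF1 consensus was in 17.6% of them, against 9.83% of windows of tested genes and 4.6% of all 32851 windows. The ETS letters were in 16.2%, against 8.01% and 3.89%, and the YY1 letters in 16.2%, against 4.39% and 2.75%. The E-box was in 9.46%, against 9.97% and 7.15%. Median GC content was 58.5% in member windows, 60.5% in those of tested genes and 52.7% in all. The NRF1 consensus was in 21.3% of large- and 11.1% of small-subunit windows, and the YY1 letters in 12.8% and 22.2%. Between raised members and members that did not pass, the shares did not all run one way: 15.2% of raised members' windows had the NRF1 consensus, against 21.1% for those that did not pass, 21.2% and 13.2% had the ETS letters, and 18.2% and 10.5% the YY1 letters. Some windows of one gene overlap, and these shares are descriptions with no test.

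Genes around the mitochondrial ribosome moved less evenly. The shares to set beside the lists below are those of all genes tested, of which 24.2% rose and 24.0% fell. Of 5 mitochondrial ribosomal proteins with other symbols, 3 (60%) rose and none fell in edgeR's test (all 5 fitted changes were above 0). Their median log2 fold change was 0.53. Dap3, a GTP-binding protein of the small subunit, had 86.9 and 82.1 CPM in M1 against 57.7 and 57.5 CPM in M0 (0.55), and Aurkaip1 and Chchd1, also of the small subunit, rose by 0.53 and 0.62 on the log2 scale. Without M0 replicate 1 none of the 3 passed. Of 28 genes for assembly of the mitochondrial ribosome and modification of its RNA, 3 (10.7%) rose, 1 (3.57%) fell and 24 did not pass. The median was 0.16. Those that passed were Tfb1m, which methylates the small-subunit RNA (log2 fold change 0.89), Mpv17l2 (0.47), the protease Afg3l2, which matures a large-subunit protein (0.32), and Mettl17 (-0.54). Without M0 replicate 2 none of the 28 passed in either direction.

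Of 15 tested genes for translation factors and mRNA handling, 2 (13.3%) rose and 2 (13.3%) fell, with a median of -0.03. The elongation factor Gfm1 (0.47) and Taco1, an activator of COX1 translation (0.64), rose, and Guf1 (-0.45) and the mRNA stabiliser Lrpprc (-0.26) fell. Without M0 replicate 1 or 2 none of these passed. Of 7 genes for mitochondrial DNA replication and transcription, Tefm, an elongation factor of mitochondrial transcription, rose (0.55) and Polg, the DNA polymerase, fell (-0.72). Tefm did not pass without M1 replicate 1 or either M0 replicate.

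Of 8 tested regulators of such genes, 4 (50%) rose and 1 (12.5%) fell. Esrra, an orphan nuclear receptor, had 59.7 and 50.7 CPM in M1 against 24.7 and 25.1 CPM in M0 (log2 fold change 1.15, edgeR adjusted p = 3.04e-05). Ppargc1b, a coactivator (0.72), Myc (0.65) and Gabpb1 (0.51) also rose, and Gabpa, the DNA-binding partner of Gabpb1, fell (-0.41, named after its values were seen). Without M0 replicate 1 or without M0 replicate 2, 1 of the 8 passed as higher and none as lower.

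The mRNAs that the mitochondrial ribosome translates went the other way. All 12 tested genes encoded in mitochondrial DNA fell, with log2 fold changes from -1.54 to -0.65 and a median of -1.10, and ATP8 was not tested. ND4L, ND3 and ND4, subunits of complex I, had log2 fold changes of -1.54, -1.35 and -1.21, and COX3, a subunit of cytochrome oxidase, -1.27. Summed over 13 genes, the level was 12012 and 10904 CPM in M1 and 19717 and 21779 CPM in M0, 1.81-fold lower in M1 with no overlap. Without M0 replicate 2, 8 of the 12 passed. All 12 fell with each of the scalings tried, and some of these genes overlap each other.

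Cytosolic ribosomal proteins, a list added after the data were seen and rich in pseudogene copies that make its counts uncertain, had a median log2 fold change of -0.13 over 75 tested genes. Of these, 2 rose (Rpl18 and Rpl27) and 19 (25.3%) fell, against 24.0% of all genes tested that fell.

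**Figure D5:**
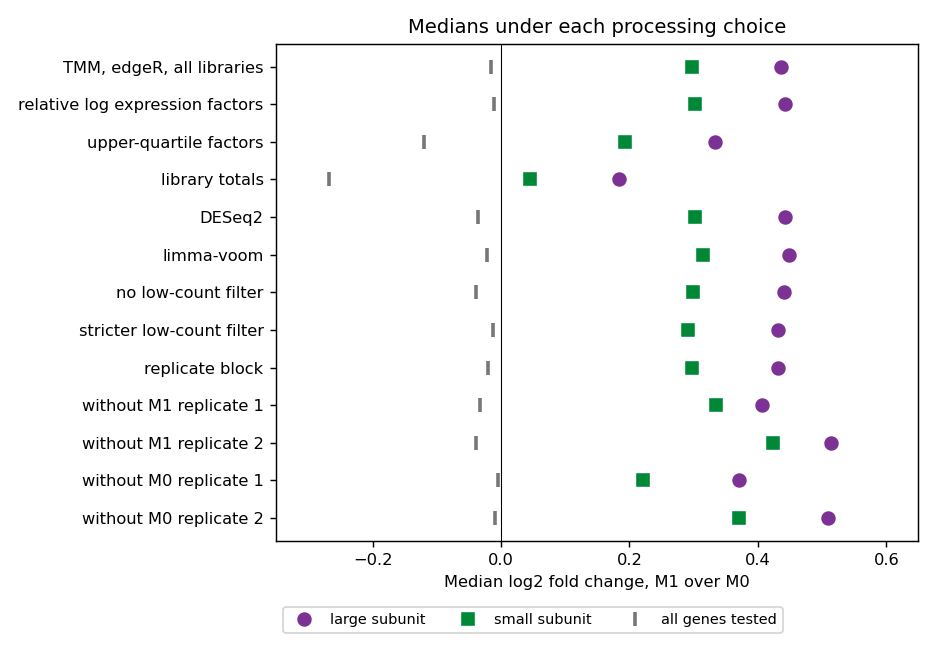
Median log2 fold change, M1 over M0, of the large subunit, the small subunit and all genes tested under the main fit and 12 other settings. The large-subunit median lies right of the small-subunit median in every setting, and with library totals all 3 medians move left, to 0.18, 0.05 and -0.27.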

How the data were processed

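RNA-seq of 4 mouse macrophage libraries, 2 M1 and 2 M0, was analysed. Per the labels' protocols, Trizol RNA was freed of DNA and of ribosomal RNA. The authors deposited raw counts per symbol. The submitters' processing notes name featureCounts (Subread 2.0.1), the build mm10, DESeq2 1.30.1 and R 4.0.4. Annotation, strand setting and filters are not given in the sources used here.

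Members and lists were chosen with earlier results of these data known. With a minimum count of 10 and a minimum total of 15 in filterByExpr (edgeR 4.0.16), 12966 of 18256 genes were tested. TMM factors were 0.911 and 0.922 in M1 and 1.10 and 1.08 in M0. M1 was compared with M0 by edgeR's quasi-likelihood test (group only, R 4.3.3), and p-values were adjusted over these genes by Benjamini and Hochberg, with calls at 0.05. The procedure was tested on simulated counts. The biological coefficient of variation was 10.9%. The standard error of a log2 fold change was its size over the root of F. A level of 3 counts is 0.185 and 0.185 CPM in M1 and 0.144 and 0.174 CPM in M0 (counting error only).

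Named members are the 8 largest rises and falls among called genes of each subunit, the 3 highest levels per length, the 3 tested members nearest 0, members failing the filter, and genes whose symbol and structure differ; from other lists, up to 4 called genes with the largest change. Gene coordinates, overlaps and likeness (BLAST 2.17.0, 95% identity over 100 bases) come from GENCODE vM21 on mm10, and promoters from RefSeq on GRCm38.p6. Counts of a member were held uncertain where 20% of its exonic length overlapped another gene, or 20% of its longest coding transcript resembled other genes. Same-numbered libraries did not deviate together (correlation -0.113), so the numbers were not taken as pairs. Alternatives were relative log expression, upper-quartile and library-total scaling, DESeq2 1.42.0, limma-voom 3.58.1, no or a stricter filter, a replicate block and leaving out each library.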

Additional observations from a re-analysis of the deposited data

How the results depend on the processing

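Of the 36 members that rose, 11 were called higher in all 12 other settings (10 of the large subunit and 1, Mrps18b, of the small subunit). With library totals, which shift the median of all genes by -0.25 on the log2 scale, 16 members rose (14 large, 2 of 28 small). Of all genes, 2026 (15.6%) rose and 4776 (36.8%) fell. Medians were 0.18 (large) and 0.046 (small), and summed ratios of M1 over M0 were 1.20 (large) and 1.03 (small). Upper-quartile factors shift the median of all genes by -0.10. With them 6 of 28 small-subunit genes rose, against 20.1% of all genes, medians were 0.33 and 0.19, and summed ratios 1.33 and 1.14. Relative to the median of all genes, the large-subunit median ranged from 0.38 to 0.55 and the small-subunit median from 0.23 to 0.46 over all settings. By DESeq2, 6 small-subunit genes rose, against 19.9% of the 14292 genes tested, and 1 member, of the large subunit, fell, against 18.5%. Leaving out 1 library each, 12 to 39 members rose and 0 to 2 fell, 10 to 27 large-subunit genes rose and 0 to 2 fell, 2 to 12 small-subunit genes rose, the small-subunit median was 0.22 to 0.42, and 1691 to 2965 of all genes rose and 1463 to 2854 fell. The 23 members that overlap or resemble other genes were also left out, a choice made after seeing the data. Of the other 54, 23 (42.6%) rose and 1, of the large subunit, fell. Of the 18 small-subunit genes among the 54, 4 (22.2%) rose, against 24.2% of all genes tested. Their median log2 fold change was 0.24. All 36 raised members kept a fitted change above 0 in each setting.

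With a replicate block, 36 members rose, 34 of them shared with the fit without it. The numbers were not shown to pair the samples, and with numbers crossed, an alternative added after seeing the data, 42 rose. With 2 libraries a group, the spread of each gene is estimated from few values, and leaving out a library leaves a lone sample that is assumed to vary like the other group. Genes under 3 counts cannot be told apart from 0.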
